A study of Mus musculus with 2 samples.

Results

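The genes described here write, read and erase N6-methyladenosine (m6A), a methyl mark inside messenger RNA, in 2 sequencing libraries whose labelled source was mouse lung fibroblasts. They were chosen by symbol from the gene table, as Mettl3, Mettl14, Wtap, Ythdf1, Ythdf2, Ythdf3, Ythdc1, Fto and Alkbh5. Of these 9 symbols, 8 matched a row among the 14694 genes of the table. Ythdf3, which encodes the remaining cytoplasmic reader of the YTHDF family, matched no row and was not analysed here.

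One library was labelled IR and one NC, and the number 4 follows each name. The labels give no age, strain, genotype, dose or time, and they spell out neither name, so IR and NC below stand for these labels alone. The study dealt with rosmarinic acid, lung fibrosis after radiation and the turning of fibroblasts into myofibroblasts. The protocols describe spinning and filtering of culture supernatants and then library construction from RNA depleted of ribosomal RNA, and they leave unstated whether cells or vesicles gave the RNA. Each group is 1 library, which leaves the spread between replicates unknown, and the differences below are between 2 libraries rather than between conditions.

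The m6A mark is placed in the nucleus by a complex built on METTL3, the catalytic subunit, METTL14, which holds the RNA and supports METTL3, and WTAP, which brings the pair to nuclear speckles. Proteins with a YTH domain read the mark: YTHDC1 acts in the nucleus on splicing and export, and the YTHDF proteins act in the cytoplasm, where YTHDF2 recruits the CCR4-NOT deadenylase to marked mRNA. FTO and ALKBH5, iron-dependent dioxygenases of the AlkB family, remove the methyl group, and FTO also acts on m6Am beside the cap. The mark differs from m7G, the tRNA modification that the series names.

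Counted reads came to 35219511 in IR and 36084512 in NC. 10921 genes had at least 50 reads over both libraries and were compared. Fibroblast markers with a row (9 of 11) summed to 3506 CPM (reads scaled to a common library total) in IR and 3322 in NC, mostly from Vim and S100a4, and without those 2 genes to 659 and 1073 CPM. Most of that remainder came from Col1a2, at 533 CPM in IR and 899 in NC. Col1a1 had 273 reads in IR and 688 in NC, more than a 2-fold difference, and Fbn1 went the other way, with 144 and 87. Of the 8 fibroblast markers compared, 3 were higher in IR and 5 lower, where 49.1% of all compared genes were higher in IR. By the rule given below, 4 of the 8 passed 1.5-fold, against 13.0% of all compared genes. Of these, Col1a1 and Col1a2 were lower in IR. Fbn1 and S100a4 were higher, S100a4 with 673 CPM in IR and 412 in NC. Dcn, the matrix proteoglycan decorin, was nearly absent, with 30 reads in IR and 7 in NC, and Thy1 and Lum matched no row. Epithelial markers with a row (4 of 10) summed to 1.02 CPM in IR and 1.03 in NC, and endothelial ones (5 of 6) to 4.66 and 4.41. Among the endothelial markers Kdr differed more than 2-fold, with 47 reads in IR and 19 in NC. Vwf went the other way, with 70 and 99 reads. Haematopoietic markers with a row (3 of 6) summed to 82.7 and 60.8 CPM, nearly all from Cd68, a lysosomal protein not limited to macrophages. Without Cd68 they summed to 0.256 and 0.139 CPM. The part of these marker levels in the values below was not tested, and in bulk RNA fewer cells of a type and less RNA per cell cannot be told apart.

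All 8 matched genes were detected and none differed 2-fold between the libraries. Mettl14, Wtap, Ythdf2 and Ythdc1 were 1.23 to 1.33 times as high in IR as in NC, Fto and Mettl3 were 0.875 and 0.901 times as high, and Ythdf1 and Alkbh5 lay within their counting intervals of equality. The ratios below are log2 ratios of IR over NC after scaling of library sizes, each with an exact 95% interval that covers counting error only. No gene of the 8 passed the rule for a 2-fold difference (an absolute log2 ratio of at least 1 with an interval that excludes equality), against 3.42% of all compared genes (1.60% higher and 1.82% lower in IR). None passed at 1.5-fold either, against 13.0% of all genes (6.09% higher and 6.90% lower). The interval excluded equality for 6 of the 8, against 63.6% of all genes, so the members' share is near the background. It lay above equality for 4 members and below for 2, against 31.2% and 32.4% of all genes.

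**Figure D1:**
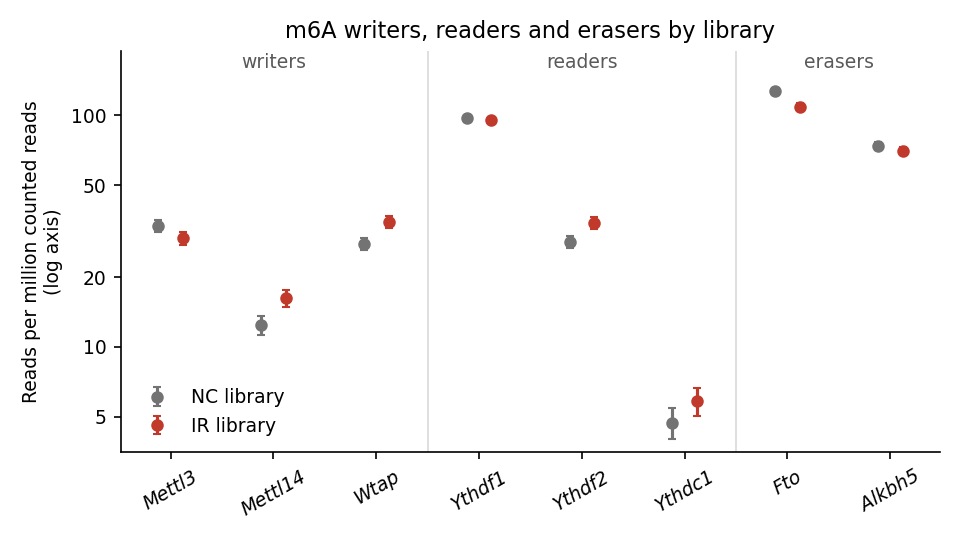
CPM of each matched gene (vertical log axis) in the NC library (grey) and the IR library (red), grouped by role, with exact 95% Poisson intervals as bars. Mettl14, Wtap, Ythdf2 and Ythdc1 sit higher in IR, Mettl3 and Fto lower, and Ythdf1 and Alkbh5 nearly level.

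The subunits of the writer core did not share a direction. Mettl14 (chromosome 3, 123368297 to 123386108, GRCm38, minus strand) had 572 reads in IR and 448 in NC, or 16.2 and 12.4 CPM. Its log2 ratio was 0.41 (interval 0.23 to 0.60), the highest of the 8 and at percentile 88.2 of all compared genes. Wtap (chromosome 17, 12966796 to 12994169, minus strand) had 1221 and 1004 reads, or 34.7 and 27.8 CPM. Its log2 ratio was 0.34 (interval 0.22 to 0.47). Of the 50-base words of its longest transcript, 9.02% also occur in other annotated genes, and no exon overlaps another gene.

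Mettl3 (chromosome 14, 52294841 to 52305128, minus strand), the catalytic subunit, went the other way. It had 1036 reads in IR and 1201 in NC, or 29.4 and 33.3 CPM, and a log2 ratio of -0.15 (interval -0.27 to -0.03). Exons of Tox4 on the opposite strand cover 18.4% of its exon sequence, and 633 of the 2110 words of 50 bases in its longest transcript occur in Tox4 when both strands are read. Tox4 itself had 2919 reads in IR against 3057 in NC, with a log2 ratio of -0.0042 (interval -0.08 to 0.07). The counting's use of strand is not stated, so the reads of Mettl3 and Tox4 may not be fully separated and the value of Mettl3 is uncertain.

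Proportions of reads between genes of the writer core need no scaling between libraries. They use the same counts as the log2 ratios above, so they restate those ratios and are no separate check. There were 0.552 Mettl14 reads per Mettl3 read in IR and 0.373 in NC, a log2 difference of 0.57 (exact conditional interval 0.35 to 0.78). There were 1.18 Wtap reads per Mettl3 read in IR and 0.836 in NC, a log2 difference of 0.50 (interval 0.32 to 0.67). Both intervals lie above 0, with the reservation about Mettl3 given above. Wtap and Mettl14 stood in nearly the same proportion, with 2.13 Wtap reads per Mettl14 read in IR and 2.24 in NC (log2 difference -0.07, interval -0.29 to 0.15). Altogether 10 such pairs were computed, and the pairs were chosen with the counts known.

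The readers split between a gene level in both libraries and genes higher in IR. Ythdf1 (chromosome 2, 180904377 to 180920949, minus strand), a cytoplasmic reader linked to translation, had 3359 reads in IR and 3506 in NC, or 95.4 and 97.2 CPM. Its log2 ratio was 0.00064 (interval -0.07 to 0.07). Its paralogue Ythdf2 (chromosome 4, 132184912 to 132212303, minus strand), linked to mRNA decay, had 1205 and 1025 reads, or 34.2 and 28.4 CPM. The log2 ratio of Ythdf2 was 0.30 (interval 0.17 to 0.42). Ythdf1 shares no 50-base word with another gene, and Ythdf2 shares 8.55% of its words, with models that include Gm6823 and Gm8401.

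Ythdc1 (chromosome 5, 86804221 to 86836659, plus strand), the nuclear reader, was the scarcest of the 8. It had 205 reads in IR and 169 in NC, or 5.82 and 4.68 CPM, with a log2 ratio of 0.34 (interval 0.04 to 0.64). The interval is the widest of the 8 and nearly reaches equality. An overlapping model on the same strand, Gm43055, covers 4.62% of its exon sequence. Of the 50-base words of its longest transcript, 8.88% also occur in Gm43055. Within a library, there were 0.359 Ythdf2 reads per Ythdf1 read in IR and 0.292 in NC (log2 difference 0.30, interval 0.16 to 0.44). There were 5.88 Ythdf2 reads per Ythdc1 read in IR and 6.07 in NC (log2 difference -0.05, interval -0.37 to 0.28).

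Promoter sequence of the 3 matched readers is shown because Ythdf2 and Ythdc1 had like ratios while Ythdf1, the paralogue of Ythdf2, did not differ. The sequences come from RefSeq on GRCm38.p6 and run, 5′ to 3′ on the strand of the gene, from 250 to 51 bases before the annotated start, a stretch of 200 bases that holds no annotated exon. They lie at chr2:180920987-180921186 (minus strand), chr4:132212307-132212506 (minus strand) and chr5:86804016-86804215 (plus strand). Capitals mark the letters of 5 motifs, read on both strands. The GC box was searched as GGGCGG. The CCAAT box was searched by the letters of its name. The E-box was searched as CACGTG. The core of a cyclic AMP response element (CRE) was searched as TGACG, and the TATA box as TATAAA. No matches overlap each other.
Ythdf1: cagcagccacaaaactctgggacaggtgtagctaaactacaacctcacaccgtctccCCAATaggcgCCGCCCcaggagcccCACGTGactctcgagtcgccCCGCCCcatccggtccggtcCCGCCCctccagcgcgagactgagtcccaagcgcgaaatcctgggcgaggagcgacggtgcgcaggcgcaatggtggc
Ythdf2: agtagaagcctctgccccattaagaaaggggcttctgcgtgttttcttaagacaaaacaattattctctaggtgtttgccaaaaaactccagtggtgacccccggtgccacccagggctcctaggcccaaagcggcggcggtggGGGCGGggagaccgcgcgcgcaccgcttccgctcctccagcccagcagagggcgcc
Ythdc1: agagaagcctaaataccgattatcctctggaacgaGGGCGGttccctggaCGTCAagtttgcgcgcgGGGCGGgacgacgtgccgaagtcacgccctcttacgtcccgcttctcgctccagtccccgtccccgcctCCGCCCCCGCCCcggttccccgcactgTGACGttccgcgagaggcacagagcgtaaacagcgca

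The Ythdf1 stretch held 3 matches to the GC box, 1 to the CCAAT box and 1 to the E-box. The Ythdf2 stretch held 1 GC box, and the Ythdc1 stretch held 4 GC boxes and 2 CRE cores. Among the same stretch of 27025 mouse promoters, 24.5% held a GC box, 28.9% a CCAAT box, 4.35% an E-box, 12.6% the CRE core and 9.48% a TATA box, which none of the 3 readers held. All 3 stretches were rich in CpG, with 19 CpG dinucleotides for Ythdf1, 13 for Ythdf2 and 26 for Ythdc1, against a median of 4. This is not particular to the readers, since the same stretch held 15 for Fto, 11 for Alkbh5 and 8 for Mettl3. The stretches of Wtap, which hold exon sequence, had 20 to 32. The motif matches describe letters and not bound sites.

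The erasers held the most reads of the 3 roles, with no correction for length and with Ythdf3 missing from the readers. They were level or lower in IR. Fto (chromosome 8, 91313525 to 91668439, plus strand) had 3842 reads in IR and 4586 in NC, or 109 and 127 CPM. Its log2 ratio was -0.19 (interval -0.26 to -0.13), the lowest of the 8 and at percentile 29.6 of all compared genes. Genes on the opposite strand cover 3.44% of its exon sequence. Alkbh5 (chromosome 11, 60536381 to 60558512, plus strand) had 2465 and 2663 reads, or 70.0 and 73.8 CPM, with a log2 ratio of -0.05 (interval -0.13 to 0.03). There were 1.56 Fto reads per Alkbh5 read in IR and 1.72 in NC (log2 difference -0.14, interval -0.25 to -0.04).

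**Figure D2:**
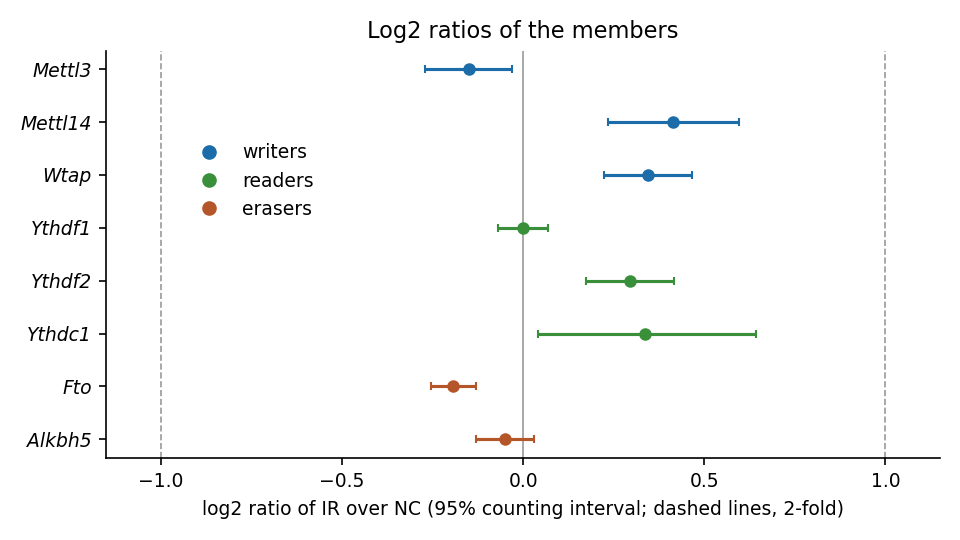
Log2 ratio of IR over NC (horizontal axis) for each matched gene, coloured by role, with exact 95% counting intervals as bars and dashed lines at 2-fold. The intervals of Mettl14, Wtap, Ythdf2 and Ythdc1 lie above 0, those of Mettl3 and Fto below 0, and those of Ythdf1 and Alkbh5 include 0.

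Summed by role, the writers made 80.3 CPM in IR and 73.5 in NC, the readers 135 and 130 CPM, and the erasers 179 and 201 CPM. These sums are not corrected for length, so they do not rank the roles by level. Of the reads on the 8 genes, writers took 20.3% in IR and 18.2% in NC, and erasers 45.4% and 49.6%. The sum over all 8 was nearly the same, at 395 CPM in IR and 405 in NC. The proportion of Mettl14 to Fto differed most among the 10 pairs, with 0.149 Mettl14 reads per Fto read in IR and 0.0977 in NC (log2 difference 0.61, interval 0.42 to 0.80). This pair joins the highest and the lowest log2 ratio of the 8, so its place was fixed by the choice of genes. Mettl3 and Fto, the catalytic writer and the lower eraser, had 0.270 Mettl3 reads per Fto read in IR and 0.262 in NC (log2 difference 0.04, interval -0.09 to 0.18).

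Levels of different genes can be compared only per length, here as reads per kilobase of all annotated exon sequence, scaled to the library total as CPM is (RPKM). Ythdf1 was highest, at 28.8 RPKM in IR and 29.3 in NC, followed by Alkbh5 (11.7 and 12.3 RPKM) and Fto (8.37 and 9.75 RPKM). Next in IR came Ythdf2 at 7.48 RPKM, Mettl3 at 5.80 and Wtap at 5.55, and the Poisson intervals of Mettl3 and Wtap overlapped. In NC Mettl3 (6.56 RPKM) and Ythdf2 (6.21 RPKM) overlapped, with Wtap after them at 4.45. Mettl14 (2.19 RPKM in IR and 1.67 in NC) and Ythdc1 (0.426 and 0.343 RPKM) were lowest in both libraries. This order depends on the length used. With the longest transcript or the coding length, 5 of the 8 genes changed rank, and with the coding length Fto came first, at 72.4 RPKM in IR and 84.4 in NC, then Alkbh5 at 59.1 and 62.3 and Ythdf1 at 54.3 and 55.3. Ythdc1 was lowest and Mettl14 next to lowest with each of the 3 lengths.

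**Figure D3:**
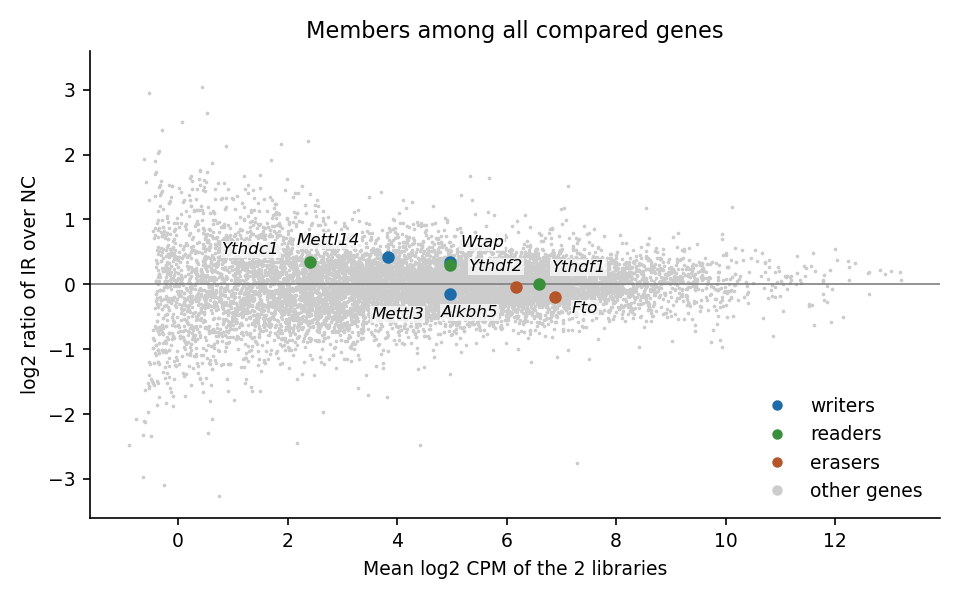
Each point is 1 of the 10921 compared genes, by its mean log2 CPM over the 2 libraries (horizontal axis) and its log2 ratio of IR over NC (vertical axis), with the 8 matched genes coloured by role. All 8 lie inside the cloud of other genes, whose ratios run from -0.69 at the 5th percentile to 0.65 at the 95th.

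All 8 members lay well within the range of the compared genes. Their median log2 ratio was 0.15, against -0.0069 over all genes, with 5 ratios above 0 and 3 below. The middle 50% of all genes lay between -0.24 and 0.22, and Mettl14, Wtap, Ythdc1 and Ythdf2 lay above that range, at percentiles 88.2, 84.5, 84.1 and 81.3. None lay beyond the 5th or the 95th percentile. Mettl3 was the only member to share at least 10% of its exon bases with another gene, and without it the median of the other 7 was 0.30, an alternative chosen after seeing the data. Ythdc1 and Fto, with the smaller overlaps given above, stayed in that median. The median of the 8 lies midway between Ythdf1 (0.00064) and Ythdf2 (0.30). Leaving out any 1 member no higher than Ythdf1 therefore gives the value of Ythdf2, whether or not it overlaps another gene.

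Of the 5 other subunits of the writer complex, 3 had an interval above equality and 2 below, where 31.2% and 32.4% of all compared genes did, and none passed 1.5-fold. Virma, the scaffold of the complex and listed in the table as 1110037F02Rik, had 482 reads in IR against 383 in NC, with a log2 ratio of 0.39 (interval 0.20 to 0.59). Rbm15, which binds RNA and guides the complex to its targets, had 340 and 275 reads (log2 ratio 0.37, interval 0.13 to 0.60). Cbll1, also known as Hakai, had 810 and 762 reads (0.15, interval 0.0061 to 0.30) and shares 17.6% of its exon bases with another gene. Zc3h13, which helps to keep the complex in the nucleus, had 936 and 1187 reads (-0.28, interval -0.41 to -0.16). Rbm15b, a paralogue of Rbm15, had 313 and 432 reads (-0.40, interval -0.62 to -0.19). A second row with the symbol Rbm15b, whose identifier the annotation used here does not hold, had 3348 and 3734 reads (-0.09) and was not counted.

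Among 6 methyltransferases that act on other RNAs or beside the cap, or their partners, 5 had an interval that included equality and 1 had one that excluded it, as did 63.6% of all compared genes. The median log2 ratio of the list was -0.0042. Pcif1, which makes m6Am beside the cap, was the exception, with 2057 reads in IR against 3041 in NC (log2 ratio -0.50, interval -0.58 to -0.42), and it shares 16.9% of its exon bases with another gene. Mettl5, which methylates 18S ribosomal RNA, had 297 and 339 reads (-0.13). At the other end were Mettl4 (78 and 72 reads, 0.17) and Mettl16 (682 and 668 reads, 0.09), which methylates U6 small nuclear RNA.

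**Figure D4:**
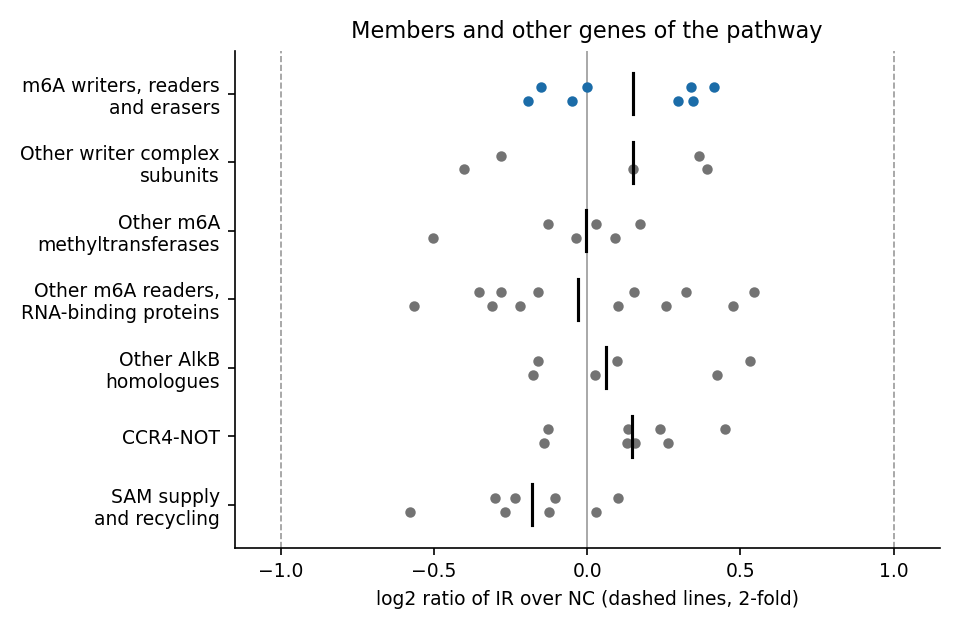
Log2 ratio of IR over NC (horizontal axis) of each compared gene in the members' list (blue) and 6 lists of related genes (grey), with the median of each list as a black bar and dashed lines at 2-fold. No gene of these lists reaches a dashed line, and each list has genes on both sides of 0.

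Of 13 other RNA-binding proteins reported to read or follow m6A, 12 were compared, with a median log2 ratio of -0.03. The interval lay above equality for 6 and below for 4, against 31.2% and 32.4% of all compared genes. Elavl1 (HuR), which stabilizes mRNA, had 3911 reads in IR against 2797 in NC (log2 ratio 0.55, interval 0.48 to 0.62). Igf2bp1, which protects bound mRNA from decay, had 3137 and 2353 reads (0.48, interval 0.40 to 0.56). Hnrnpc, a nuclear RNA-binding protein, was lowest, with 8233 and 12717 reads (-0.56, interval -0.61 to -0.52). Rbmx followed it with 109 and 146 reads (-0.35, interval -0.73 to 0.0086). Ythdc2, the remaining YTH-domain protein and a helicase, had 17 and 31 reads and was not compared.

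Genes listed for the CCR4-NOT deadenylase, which YTHDF2 recruits, had a median log2 ratio of 0.15. Cnot1 and Cnot10 matched no row, and Cnot2, with 11 reads in IR and 14 in NC, was not compared. Of the 11 listed, 9 had a row and 8 were compared, with 5 intervals above equality and 1 below, against 31.2% and 32.4% of all compared genes. Cnot4 (540 reads in IR against 412 in NC, log2 ratio 0.45) and the deadenylase Cnot7 (468 and 407 reads, 0.26) were highest. The deadenylase Cnot6 (117 and 135 reads, -0.14, interval -0.51 to 0.22) and Cnot8 (1675 and 1912 reads, -0.13, interval -0.22 to -0.03) were lowest. No gene of the writer complex, methyltransferase, reader or CCR4-NOT lists passed 1.5-fold, against the 13.0% of all compared genes given above.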

How the data were processed

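Total RNA depleted of ribosomal RNA was sequenced in 1 library labelled IR and 1 labelled NC. The deposited table holds raw counts of reads per gene, per the file headers, for 14694 protein-coding genes. Per the submitters' processing notes, cutadapt 1.9.3, HISAT2, HTSeq 0.9.1 and edgeR were used with mm10. The annotation release and the use of strand are not given in the sources used here. A further 2 columns of normalized values were not used.

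Library sizes were scaled with TMM factors (edgeR 4.0.16, R 4.3.3), 0.991 for IR and 1.01 for NC. Log2 ratios used a prior count of 2 and genes with at least 50 reads over both libraries. Their intervals are exact (Clopper-Pearson), those of CPM and RPKM are Poisson intervals, and those of read proportions are exact conditional intervals (scipy 1.17.1). PCR copies are not independent molecules, so intervals cover counting error only. With 1 library per group no p-value was computed. Positions, lengths, overlaps and shared words were taken from GENCODE vM21 (GRCm38), where 14584 identifiers (99.3%) were found. The procedure was tested on simulated data.

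All members were named, as were all other writer complex subunits and, from each other list of related genes, the 2 highest and 2 lowest. The members and lists were chosen with earlier results of these data known. Alternatives were scaling by total counts, DESeq2 1.42.0 size factors or upper quartile, prior counts of 0.5 and 5, no filter or 200 reads, loess centring (span 0.5) on length and GC content, and other lengths.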

Additional observations from a re-analysis of the deposited data

How the results depend on the processing

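No paired analysis was possible because each group holds 1 library. Under the 6 alternatives of scaling, prior count and centring, the ratios of Mettl14, Wtap, Ythdf2, Ythdc1, Mettl3 and Fto kept their direction and stayed within their counting intervals, from 0.39 to 0.44 for Mettl14 and from -0.18 to -0.13 for Mettl3. Ythdf1 lay between -0.03 and 0.03 and Alkbh5 between -0.08 and 0.02, so their sign depends on the setting. Scaling moved all log2 ratios by at most 0.03. The counts of members past 2-fold (0), past 1.5-fold (0) and with an interval excluding equality (6) were the same under each alternative run. The median of 0.15 lay between 0.12 and 0.17 and, in an alternative chosen after seeing the data, was 0.30 without the member that overlaps another gene over at least 10% of its exon sequence. Leaving out any 1 member no higher than Ythdf1 gives that same 0.30. With the longest transcript 5 members changed rank by level, and with the coding length 5 did. Depth limits Ythdc1 most, and replicate error is unknown for every value.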

Other observations

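The 8 genes listed for supply and recycling of S-adenosylmethionine, the methyl donor of all these writers, had a median log2 ratio of -0.18. The list includes the Ahcy-like genes Ahcyl1 and Ahcyl2, whose part in recycling is not shown here. The interval lay below equality for 4, above for 1 and included it for 3, against 32.4% of all compared genes below and 31.2% above. None passed 1.5-fold, against 13.0% of all compared genes. Their summed level was 956 CPM in IR and 949 in NC, most of it from Ahcy. Mat2a, the synthetase that makes the donor, had 1153 reads in IR against 1482 in NC (log2 ratio -0.30, interval -0.41 to -0.19) and shares 11.3% of its exon bases with another gene. Mtrr, which reactivates methionine synthase, was lowest, with 109 and 171 reads (-0.58, interval -0.95 to -0.23). Ahcy, which breaks down the spent donor, was highest, with 28038 and 27327 reads (0.10, interval 0.08 to 0.12), and Mtr, methionine synthase, had 256 and 262 reads (0.03, interval -0.23 to 0.28).

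The other AlkB homologues, relatives of Fto and Alkbh5, had a median log2 ratio of 0.06 over 6 compared genes of 7 listed. The interval lay above equality for 2 and below for 1, against 31.2% and 32.4% of all compared genes. Alkbh1 had 350 reads in IR against 252 in NC (log2 ratio 0.53, interval 0.30 to 0.78). Alkbh2, a DNA repair enzyme, had 1220 and 949 reads (0.42, interval 0.30 to 0.55), and shares 29.5% of its exon bases with another gene. Alkbh7 (1037 and 1223 reads, -0.18, interval -0.30 to -0.06) and Alkbh4 (587 and 685 reads, -0.16, interval -0.32 to 0.00084) were lowest.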
